A study of Mus musculus with 6 samples.

Results

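Receptors for GABA, glycine and glutamate carry inhibitory and excitatory transmission between the sensory neurons of the dorsal root ganglia (DRG) and the neurons of the spinal cord. The set described here is the genes of their subunits. Its members were the genes on the array whose annotated symbol belongs to the GABA-A, GABA-B, glycine, AMPA, kainate, NMDA or metabotropic glutamate receptor families, which gave 53 probes of 40 genes, out of 25697 probes and 16593 genes in all. The choice used symbols only and no measured value. Some other genes of these families were not analysed here.

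GABA-A and glycine receptors are pentameric chloride channels that mostly inhibit adult neurons, and GABA-B receptors act through G proteins. AMPA, kainate and NMDA receptors are tetrameric cation channels opened by glutamate. The metabotropic glutamate receptors signal through G proteins, and those of group III mostly sit on presynaptic terminals, where they restrain release. Sensory neurons bear kainate, AMPA and GABA receptors on their axons and central terminals, whereas glycine receptors are best known from the neurons of the spinal cord and brainstem.

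The study profiled adult female C57Bl6 mice (C57BL6/J in the methods) after transection of the sciatic nerve, on 6 Illumina MouseRef-8 v2.0 arrays. There was 1 array per condition, each with a pool of RNA from 6 animals. In the nerve, the conditions were sham, day 1 after transection and day 5 after transection, with the segments distal and proximal to the cut pooled. The others were the day 5 L4/5 DRG of the injured side, the sham L4/5 DRG and the day 5 spinal cord. The labels call the control nerve and DRG normal tissue of the right side, and the study calls them sham-operated. No sham spinal cord was analysed here, so injury and tissue cannot be told apart in the cord. With 1 pool per condition there is no replicate error between animals, no p-value was computed between conditions, and every interval below is a 95% interval from the spread of the beads of a probe on 1 array.

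Signals were scaled to a common median, and a gene was detected where its deposited detection p-value, taken against the negative controls of the array, was below 0.05. The lowest detected signal set the floor of each array, 117 to 124. A gene was called higher or lower where the signals of 2 arrays, with undetected signals raised to the floor, differed at least 2-fold and the brighter array detected it. Where only the brighter array detected a gene, its fold is given as a lower bound. Such a bound leaves out the bead error and moves with the floor. A gene detected in only 1 of the 2 arrays could be called brighter in that array but not in the other. Member probes had 21 to 65 beads per array. Background was not subtracted, so folds of dim probes lie closer to 1 than the change in RNA, and most members were dim.

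The tissues were checked against marker genes. All 9 markers of sensory neurons were detected in the day 5 DRG and the sham DRG, against 2 of 9 in the cord. Of the Schwann cell markers, 6 of 7 were detected in every array, so their count does not tell the nerve apart. Their summed signals were 62347, 62945 and 31124 in the sham, day 1 and day 5 nerve. In the day 5 DRG, the sham DRG and the cord they were 30859, 31190 and 9644. Markers of spinal cord cells were not limited to the cord array. Of 8 markers of spinal neurons, 6 were detected in the cord with a summed signal of 18843. In the DRG, 1 of 8 was detected on day 5 (summed signal 801), against 3 of 8 in the sham array (2431). In the nerve, 1 of 8 was detected in sham tissue, 4 of 8 at day 1 and 0 of 8 at day 5, with summed signals of 811, 1604 and 814. Oligodendrocyte markers had the same order within the DRG and within the nerve. Of these, 3 of 10 were detected in the day 5 DRG and 9 of 10 in the sham DRG, and 3, 7 and 2 of 10 in the sham, day 1 and day 5 nerve. In the cord 8 of 10 were detected, fewer than in the sham DRG, with a summed signal of 62988 against 9257. Slc32a1, the vesicular transporter of GABA and glycine, had a signal of 11259 in the cord, 107 in the day 5 DRG and 1031 in the sham DRG, and in the nerve it had 97.5, 559 and 115 in sham, day 1 and day 5 tissue. It was thus detected in the sham DRG and the day 1 nerve and not in the day 5 DRG, the sham nerve or the day 5 nerve. Some markers of neurons, Snap25, Nefl and the GABA-synthesizing enzyme Gad2 among them, were detected in none of the arrays, so an undetected probe does not show that a transcript was absent.

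Receptor subunit probes were detected mainly in the neural tissues that hold cell bodies. Of the 40 members, 19 were detected in the day 5 cord, 11 in the day 5 DRG and 15 in the sham DRG, where 57.5%, 57.6% and 58.3% of all genes were. In the nerve, 3 members were detected in sham tissue, 7 at day 1 and 5 at day 5, where 55.2%, 58.6% and 57.6% of all genes were. No member was detected only outside the cord, since the 19 members detected in any array were the 19 detected in the cord. The other 21 members were undetected in every array, with signals from 72.6 to 122. These were 11 of the 16 GABA-A subunits, Glra3 and Glra4, Grik2, the 4 NMDA subunits Grin2a to Grin2d, and Grm3, Grm4 and Grm6.

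**Figure D1:**
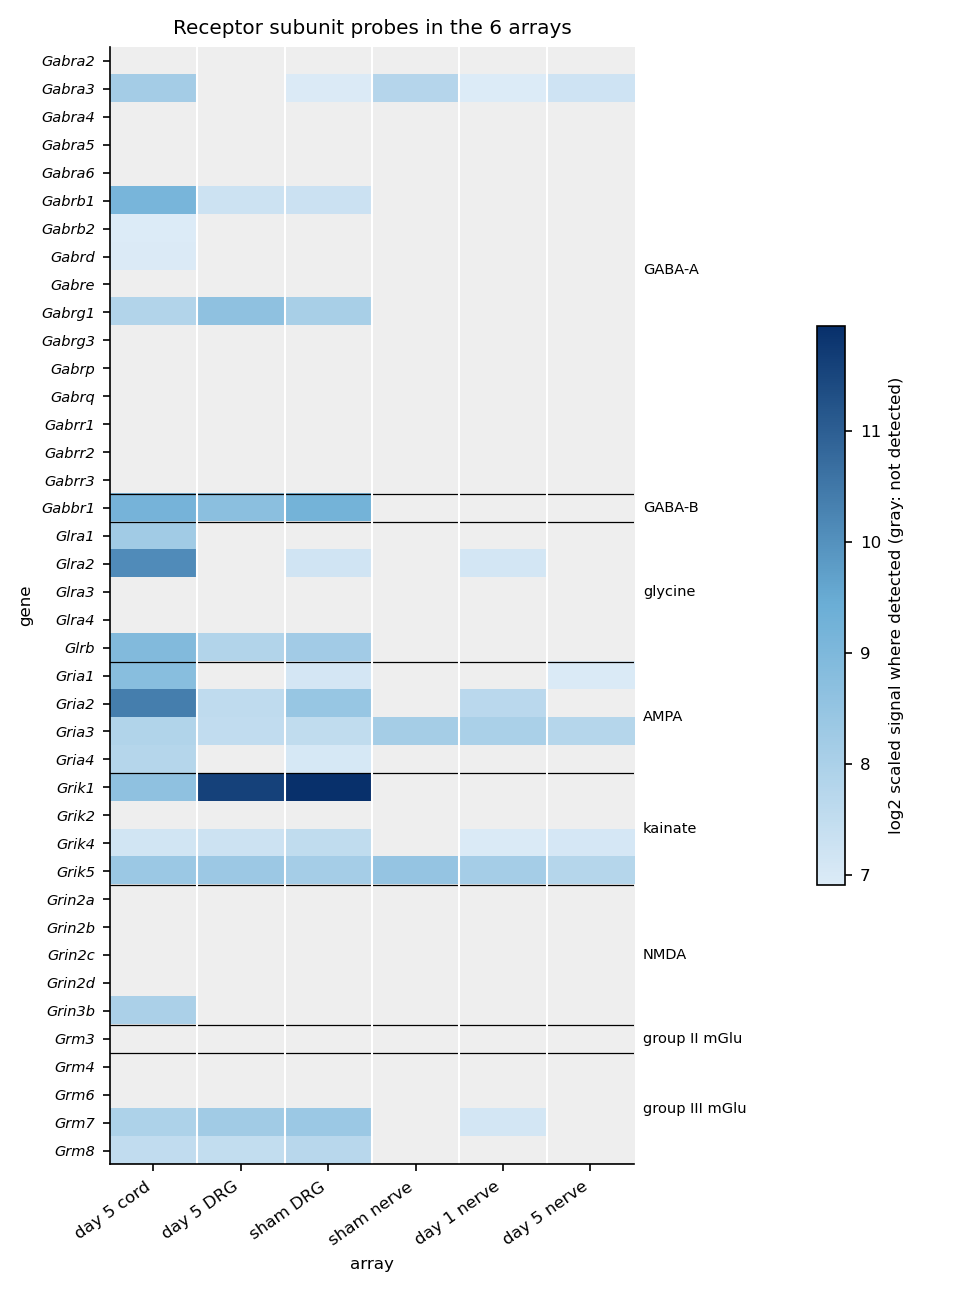
Log2 scaled signal of the 40 receptor subunit genes (rows, by family) in the 6 arrays (columns), with undetected signals in gray. Filled cells are most frequent in the cord (19 genes), the sham DRG (15) and the day 5 DRG (11), and 21 rows are gray throughout.

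Detection fell into few patterns. Gabbr1, Gabrb1, Gabrg1, Glrb, Grik1 and Grm8 were detected in both DRG arrays and the cord and in no nerve array. Gabrb2, Gabrd, Glra1 and Grin3b were detected in the cord alone, although Gabrb2 (121) and Gabrd (123) lay at the floor. Only Gria3 and Grik5 were detected in all 6 arrays. Of the 8 members detected in any nerve array, the sham nerve held Gabra3, Gria3 and Grik5.

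The detection of members that lie side by side in the genome varied. By the order of coding genes in the RefSeq annotation of GRCm38.p6, 10 pairs of members had at most 2 coding genes between them. Of these pairs, 3 were undetected throughout, Gabrr2 with Gabrr1, Gabra2 with Gabra4 and Gabrg3 with Gabra5. On chromosome 5 the order was Gabrg1, Gabra2, Gabra4 and Gabrb1, and the outer genes were each detected in 3 arrays while the inner genes were undetected. On chromosome X, Gabra3 was detected in 5 arrays, and its neighbours Gabre and Gabrq in none. Gria2 and Glrb are adjacent on chromosome 3 and were both detected in the DRG and the cord. Glra1 and Gria1 lie on chromosome 11 with 1 coding gene between them, and both had their highest signal in the cord.

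Among the inhibitory ionotropic receptors, Gabrb1, a beta subunit of the GABA-A receptor, had the widest range of its family. Its signal was 558 in the day 5 cord, 153 in the day 5 DRG and 156 in the sham DRG, and 102, 117 and 102 in the sham, day 1 and day 5 nerve, where it was undetected. The cord stood above both DRG arrays, and the DRG arrays were alike. In the cord its signal was 3.65-fold that of the day 5 DRG (3.10 to 4.29). Gabrg1, a gamma subunit, had another order. Its signal was 228 in the cord, 393 in the day 5 DRG, 265 in the sham DRG and 100 to 117, undetected, in the nerve. It was the member with the largest increase in the day 5 DRG over the sham DRG, 1.48-fold (1.25 to 1.76), which was under the 2-fold limit. Gabra3, an alpha subunit, was detected in 5 arrays, with 286 in the cord, 111 (undetected) in the day 5 DRG, 123 in the sham DRG and 221, 120 and 148 in the sham, day 1 and day 5 nerve. Its nerve signal was therefore lower after transection at both times, without reaching 2-fold. With neqc, which subtracts background, it was called lower at both times, by 3.73-fold at day 1 and 2.17-fold at day 5.

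Gabbr1, the GABA-binding subunit of the GABA-B receptor, was the member of its family on the array. It had a signal of 576 in the cord, 419 in the day 5 DRG and 597 in the sham DRG, and 114, 114 and 98.5 in the sham, day 1 and day 5 nerve, where it was undetected. Cord and DRG thus lay close together and above the nerve. A further Gabbr1 probe was undetected in every array, with signals from 92.7 to 104.

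The 3 detected glycine receptor genes were brightest in the cord. Glra2, the alpha subunit known as the main fetal form, had a signal of 1095 in the cord, 110 (undetected) in the day 5 DRG and 144 in the sham DRG. In the nerve it had 105, 139 and 92.6 in sham, day 1 and day 5 tissue, and only the day 1 value was detected. Its cord signal was at least 9.15-fold that of the day 5 DRG. Glra1, the alpha subunit of the adult spinal receptor, had 299 in the cord and was undetected elsewhere, at 86.5 to 106, so its cord signal was at least 2.50-fold that of the day 5 DRG. Glrb, the beta subunit that anchors the receptor to gephyrin, had 482 in the cord, 228 in the day 5 DRG, 293 in the sham DRG and 96.4 to 102, undetected, in the nerve. A further Glrb probe was detected in the cord alone, at 152. Glra1 was thus detected in the cord alone and Glra2 also in the sham DRG and the day 1 nerve, whereas the beta subunit was detected in the cord and both DRG arrays.

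**Figure D2:**
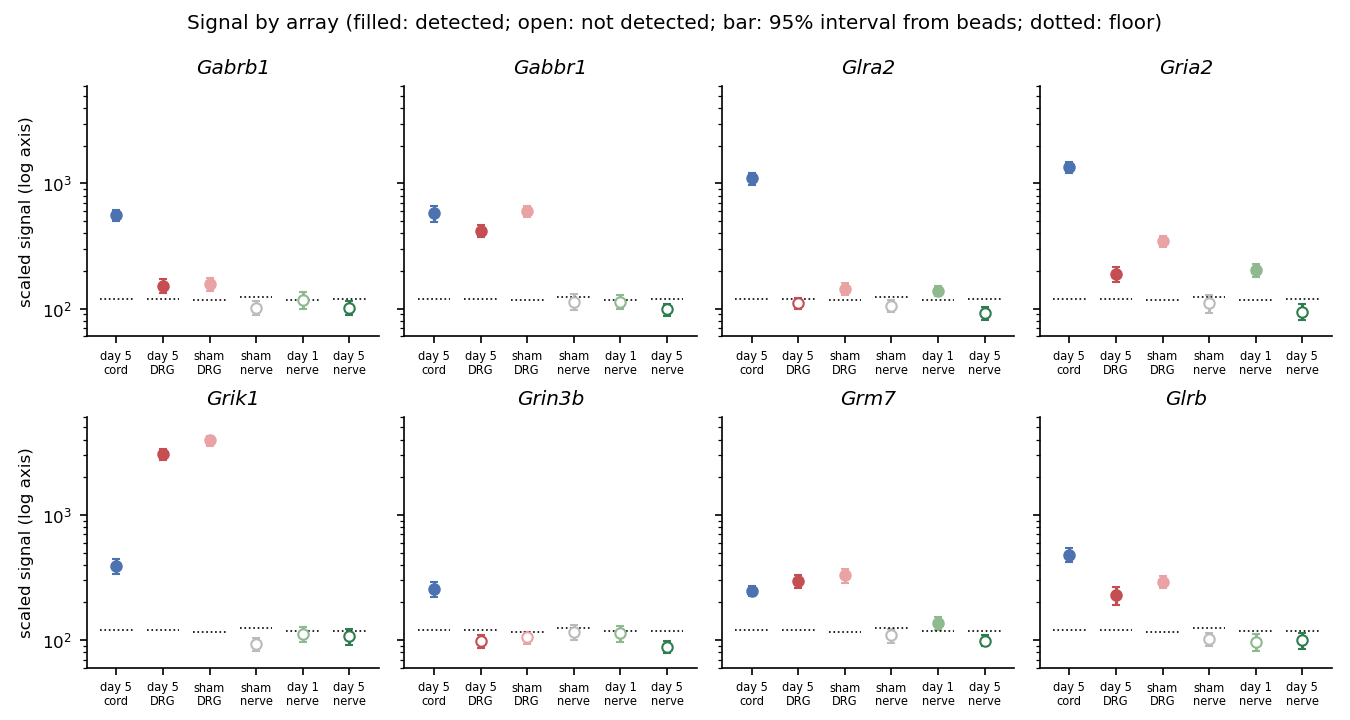
Scaled signal (log axis) in the 6 arrays of the gene with the widest range in each of 7 families, and of Glrb. Points are arrays, filled where detected, bars are 95% intervals from the beads and dotted lines the floors of 117 to 124. Grik1 is brightest in the DRG, and Gria2 and Glra2 in the cord.

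The AMPA receptor family was the only one with several members whose 4 genes were all detected in some array. Gria2, whose subunit keeps calcium out of the AMPA channel, had the widest range, with a signal of 1341 in the cord, 188 in the day 5 DRG and 346 in the sham DRG. In the nerve, Gria2 had 111, 204 and 94.8 in sham, day 1 and day 5 tissue, with only the day 1 value detected. It was called higher in the cord, 7.12-fold over the day 5 DRG (6.01 to 8.45). A further Gria2 probe gave the same order of cord and DRG, with 644 in the cord, 130 in the day 5 DRG and 224 in the sham DRG, and was undetected in all nerve arrays, with 116 at day 1. Gria1 had 436 in the cord, 109 (undetected) in the day 5 DRG and 136 in the sham DRG, and in the nerve it was detected only at day 5, at 125. Its further probes were also brightest in the cord (273 and 227) and were both detected in the day 1 nerve (127 and 133) and in the day 5 DRG (124 and 121, against 109, undetected, and 121 in the sham DRG). The arrays in which Gria1 counts as detected thus depend on the probe. Gria4 had 216 in the cord, 107 (undetected) in the day 5 DRG and 131 in the sham DRG. The brightest Gria3 probe departed from these, since its highest signal was in the sham nerve. It had 234 in the cord, 181 in the day 5 DRG and 185 in the sham DRG, against 282, 261 and 218 in the sham, day 1 and day 5 nerve. Of the further Gria3 probes, 1 was detected in the cord alone, at 142, and both were undetected in the nerve and the DRG, at 87.1 to 116, so its nerve signal rested on 1 of 3 probes.

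The 250 bases before the start sites were read from the RefSeq promoters of GRCm38.p6, in which 32 of the 40 members matched 39 windows. The letters GGACAGC, the right part of the RE1 element to which the neuronal gene repressor REST binds, were searched on both strands. They occurred in 3 of the 39 member windows, those of Gria2, Glra2 and Glrb, and in 5.28% of all 32851 windows, so these genes are grouped here by the match and not by their signal. This motif was chosen with the expression values known, and a match is a description of the sequence alone. Across the whole element of 19 fixed letters, the best match was 17 letters for Gria2, a number reached in 0.0244% of all windows. It was 13 letters for Glra2, reached in 7.05%, and 12 for Glrb, reached in 30.1%. Other letters were also searched on both strands. The GC box GGGCGG was in 18 of the 39 member windows (17 members) and in 32.7% of all windows. The TATA box TATAAA was in 5 of the 39 (4 members) and in 12.4% of all windows. The left part of RE1, TTCAGCACC, and the cAMP response element TGACGTCA were in no member window, against 0.301% and 1.55% of all windows. The windows of Gria2 (chr3:80802836-80803085, minus strand) and Glra2 (chrX:165327394-165327643, minus strand) are shown 5′ to 3′ because they hold the motif and these members had the largest folds of the cord over the day 5 DRG, with the right part of RE1, here on the opposite strand, in capitals.
Gria2: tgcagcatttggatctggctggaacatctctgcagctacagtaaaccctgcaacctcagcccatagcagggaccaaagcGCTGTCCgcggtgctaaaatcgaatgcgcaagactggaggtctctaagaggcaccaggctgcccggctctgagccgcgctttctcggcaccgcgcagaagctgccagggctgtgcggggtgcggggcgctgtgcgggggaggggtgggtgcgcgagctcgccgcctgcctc
Glra2: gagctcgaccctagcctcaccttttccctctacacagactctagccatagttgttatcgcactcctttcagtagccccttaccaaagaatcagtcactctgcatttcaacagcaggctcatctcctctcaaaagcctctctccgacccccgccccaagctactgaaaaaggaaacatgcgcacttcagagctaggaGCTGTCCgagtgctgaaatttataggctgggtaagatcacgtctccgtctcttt

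Of the kainate receptor genes, Grik1, which encodes the main kainate subunit of DRG neurons, had the widest range of all 40 members. Its signal was 392 in the cord, 3073 in the day 5 DRG and 3940 in the sham DRG, and 92.9, 112 and 107 in the sham, day 1 and day 5 nerve, where it was undetected. The DRG arrays stood above the cord and the cord above the nerve. Grik1 was the 1 member called lower in the cord than in the day 5 DRG, 7.85-fold (6.64 to 9.28). Its further probes differed from this. The second was detected in the cord (122), the day 5 DRG (221) and the sham DRG (149), and was higher in the day 5 DRG than in the sham DRG, opposite to the brightest probe. The third was undetected in all arrays, at 91.5 to 106. Grik5, a high-affinity subunit that needs a partner such as Grik1 to form a channel, was detected everywhere, with 327 in the cord, 322 in the day 5 DRG, 279 in the sham DRG and 360, 277 and 216 in the sham, day 1 and day 5 nerve. Grik4, also of the high-affinity kind, stayed between 124 and 184 and was undetected in the sham nerve.

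**Figure D3:**
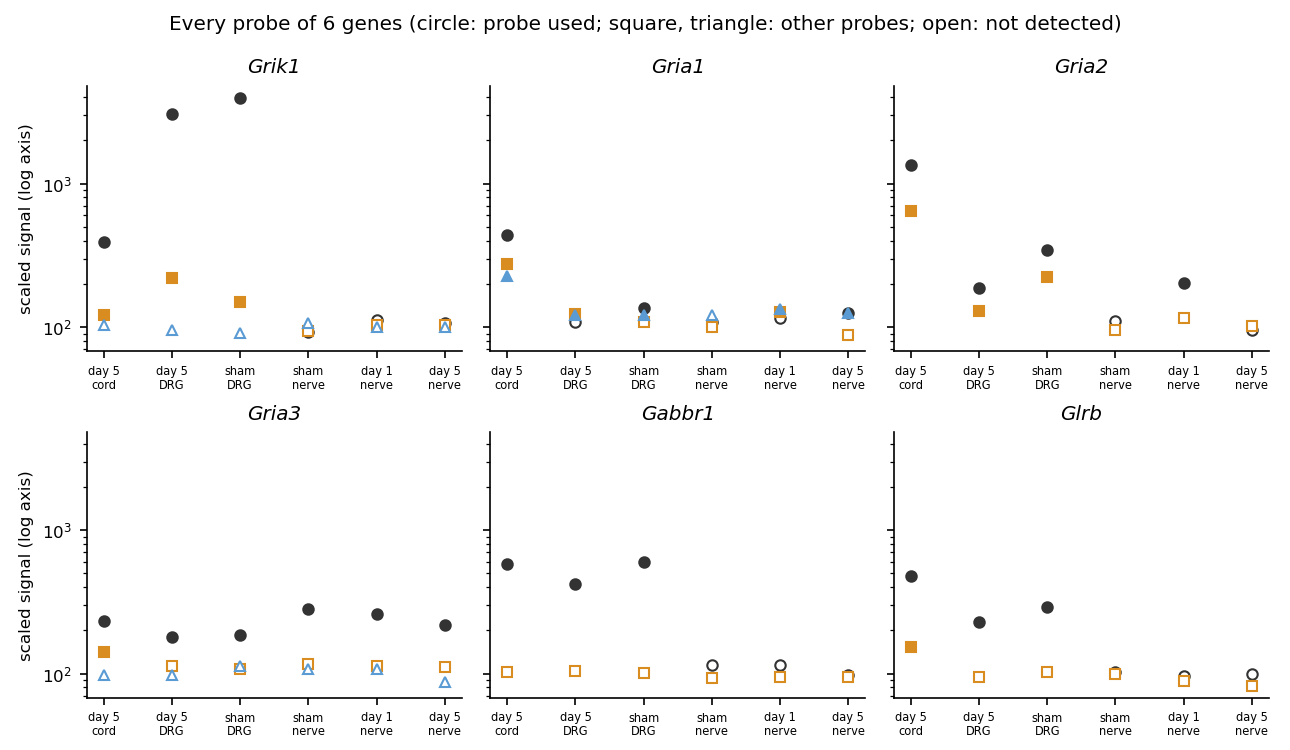
Scaled signal (log axis) of every probe of 6 members in the 6 arrays. Circles are the probe used, squares and triangles further probes of the gene, and open symbols undetected signals. The probes of Gria2 have the same order of cord and DRG arrays, whereas those of Grik1, at 3073 and 221 in the day 5 DRG against 3940 and 149 in the sham DRG, do not.

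The NMDA receptor was represented by 5 genes, of which only Grin3b, a subunit first known from motor neurons, was detected. Its signal was 256 in the cord and 88.5 to 116, undetected, in the other arrays, which placed the cord at least 2.14-fold above the day 5 DRG. Of the metabotropic receptors, the detected genes were Grm7 and Grm8, both of group III. Grm7 had 247 in the cord, 296 in the day 5 DRG and 329 in the sham DRG, and 109, 138 and 99.0 in the sham, day 1 and day 5 nerve, of which only the day 1 value was detected. Grm8 had 183 in the cord, 179 in the day 5 DRG and 209 in the sham DRG, and was undetected in the nerve, at 86.5 to 98.1. Both genes thus differed little between the neural tissues that hold cell bodies.

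The first question of the design was which genes changed in the nerve after transection. No member was called in either direction at day 1 over sham, with 7 members detected in either array, where 6.54% of all genes detected in either array were higher and 3.59% lower. No member was called at day 5 over sham either, with 5 detected, against 6.30% higher and 5.09% lower among all genes. Members detected in either array had a median log2 difference of 0.00 at day 1 and -0.37 at day 5, beside -0.01 and -0.02 for all genes, and both comparisons share the sham nerve array. At a limit of 1.5-fold, 1 member was higher and 1 lower at day 1, against 14.2% and 10.8% of all genes, and 0 higher and 1 lower at day 5, against 13.3% and 12.5%. With all arrays left unscaled, the day 1 calls over all genes were 842 higher and 264 lower, beside 669 and 367 with scaling, and the members still gave none.

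The members of the nerve that came closest to the limit were Gabra3, Gria2 and Grik5, which were chosen for description after their values were seen. Gabra3 was lower at day 1 than in sham nerve, by 1.84-fold (1.53 to 2.22), and at day 5 by 1.49-fold (1.22 to 1.82). Grik5 was lower by 1.30-fold at day 1 (1.08 to 1.55) and by 1.66-fold at day 5 (1.40 to 1.97). Gria3 at day 5 was lower by 1.29-fold (1.05 to 1.59). At day 1, Gria3 was lower by 1.08-fold (0.88 to 1.33), an interval that includes no difference, and without scaling its log2 difference was 0.02. None of these intervals covers the spread between animals. In bulk tissue, fewer cells of a type and less RNA per cell cannot be told apart. Schwann cell markers had summed signals of 62347, 62945 and 31124 in the sham, day 1 and day 5 nerve, and macrophage and neutrophil markers had 11301, 75447 and 80987. The Schwann cell markers did not move together. At day 5, 3 of the 6 detected were called lower (Drp2, Ncmap and Egr2), against 5.09% of all genes. Ngfr (4217 at day 5, 841 in sham) was the 1 called higher, against 6.30%. Their sum is thus no measure of the number of Schwann cells. Skeletal muscle markers had 7225, 3108 and 5323, and 5 of 7 were called lower at day 1 and 1 of 7 at day 5, against 3.59% and 5.09% of all genes. Gabra3 had the order of the summed muscle signal within the nerve but not in the other arrays. Acta1, Tnnt3, Myl1 and Tnnc2 had that order in the nerve. Ckm (348, 183 and 136 in sham, day 1 and day 5), Myh4 (192, 140 and 115, the last undetected) and Mylpf (411, 197 and 677) did not. In the day 5 DRG, the sham DRG and the cord the muscle markers had 4116, 5887 and 1429, and Gabra3 had 111 (undetected), 123 and 286. The part of the marker shifts of the nerve in its subunit signals was not tested.

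Between the transected nerves, no member was called in day 5 over day 1, with 8 detected in either array, against 3.25% higher and 4.65% lower among all genes. At 1.5-fold, 0 were higher and 1 lower, against 8.42% and 11.7%. The 4 members detected at day 1 but not in sham nerve were Glra2, Gria2, Grik4 and Grm7. Gria2 at day 1 was at least 1.64-fold above sham, and at day 5 at least 1.71-fold below day 1, and Glra2 and Grm7 had bounds of 1.12-fold and 1.11-fold over sham. With a detection p under 0.01, which raises the floor, Glra2 and Grm7 each had a log2 difference of -0.01 from sham. Grik4 lay at 124 in both sham and day 1 nerve, at the floor. In the same day 1 array, spinal neuron markers were detected at 4 of 8, with Slc32a1 at 559 and Gad1 at 388, and the oligodendrocyte genes Olig1 and Mog had 905 and 274. Olig1 did not follow the others at day 5. It was still detected then, at 411, whereas Mog (97.0), Slc32a1 (115) and Gad1 (105) were not. Of the sensory neuron markers, 4 of 9 were detected at day 1, at a summed signal of 1128, against 2 of 9 and 1018 in sham nerve. Scn11a, Prph, Isl1 and Runx1 were detected at day 1, and Scn10a, Avil, P2rx3, Trpv1 and Mrgprd were not. Of the general neuron markers, 12 of 15 were detected at day 1 and 8 of 15 in sham nerve. At day 1 over sham, 6 of the 12 detected in either array were called higher and 0 lower, against 6.54% and 3.59% of all genes. The part of RNA from spinal cord cells in the day 1 signals of Gria2, Glra2 and Grm7 was not tested.

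**Figure D4:**
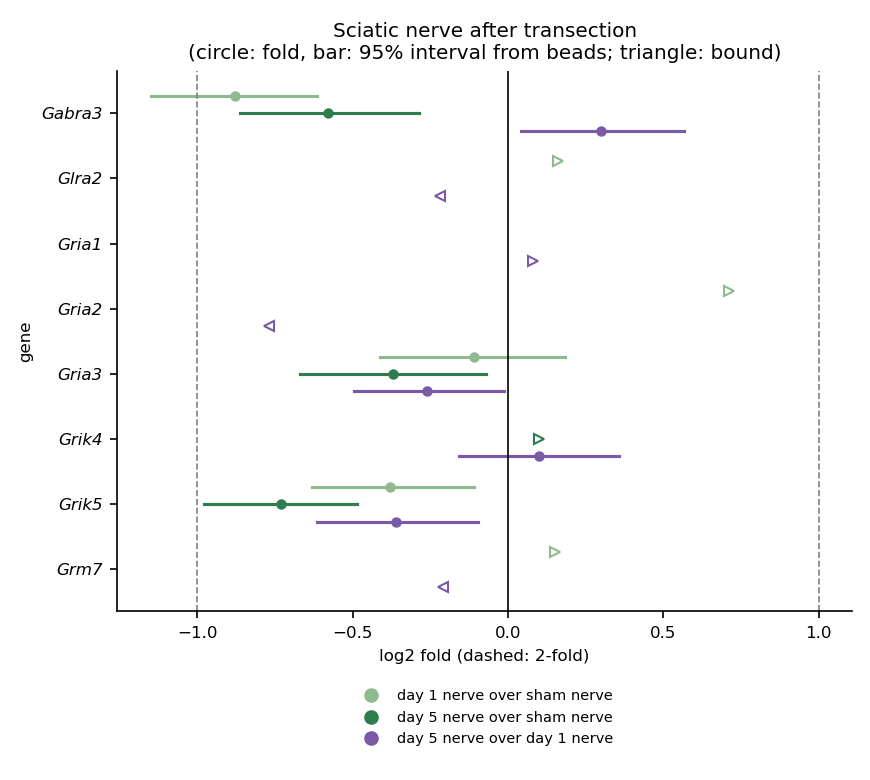
Log2 fold of the 8 members detected in the nerve, for day 1 over sham, day 5 over sham and day 5 over day 1. Circles with bars are folds with 95% intervals from the beads, triangles are lower bounds of the size of a difference, and bounds of 1 are left out. Every circle and triangle lies inside the 2-fold lines, and the day 1 interval of Gabra3 (1.53 to 2.22) crosses one.

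The next question was how the DRG of the injured side differed from the sham DRG. No member was called, with 15 detected in either array, and few genes were called in all, 0.854% higher and 0.324% lower. Signals of 13 of the 15 detected members were lower in the day 5 DRG and those of Gabrg1 and Grik5 higher, with a median log2 difference of -0.18 beside 0.00 for all genes. The lower ones include 4 members, Gabra3, Glra2, Gria1 and Gria4, that counted as detected through the sham DRG alone. Their direction was thus nearly fixed by that filter. The share of all genes with a lower signal was not counted, so nothing is concluded from 13 of 15. At 1.5-fold, 0 members were higher and 1 lower, against 2.87% and 2.24% of all genes. Gria2, the 1 member past that limit, was lowest, at 1.84-fold below the sham DRG (1.54 to 2.19). It was followed by Gabbr1 at 1.43-fold (1.23 to 1.66), Glrb at 1.29-fold (1.06 to 1.56) and Grik1 at 1.28-fold (1.12 to 1.47). For the other members detected in both arrays, Gabrb1, Gria3, Grik4, Grik5, Grm7 and Grm8, the interval included no difference. Grik5 was higher by 1.16-fold (0.965 to 1.38).

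Of the DRG arrays, the sham array detected the more members. By the probes used, Gabra3, Glra2, Gria1 and Gria4 were detected in the sham DRG and not in the day 5 DRG, with bounds of 1.02-fold to 1.20-fold, and no member was detected in the day 5 DRG and not in the sham DRG. For Gria1 the further probes did not follow this, since 1 had 121 in both arrays and the other 124 in the day 5 DRG and 109, undetected, in the sham DRG. All 4 were also detected in the cord, at 286, 1095, 436 and 216. Spinal neuron and oligodendrocyte markers moved with them. Gad1, the other GABA-synthesizing enzyme, had 97.4 in the day 5 DRG and 535 in the sham DRG, and Mog, a myelin protein of oligodendrocytes, had 100 and 331. Over all 8 spinal neuron markers the summed signal was 801 in the day 5 DRG and 2431 in the sham DRG, and over the 10 oligodendrocyte markers 4716 and 9257. Sensory neuron markers had 41141 and 45975. The part of spinal cord RNA in the lower day 5 signals of Gria2, Glrb, Glra2, Gria4 and Gabra3, and of the brightest Gria1 probe, was not tested. Grik1, whose cord signal was 392 against 3073 and 3940 in the day 5 and sham DRG, is a member for which the DRG is the brighter tissue.

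**Figure D5:**
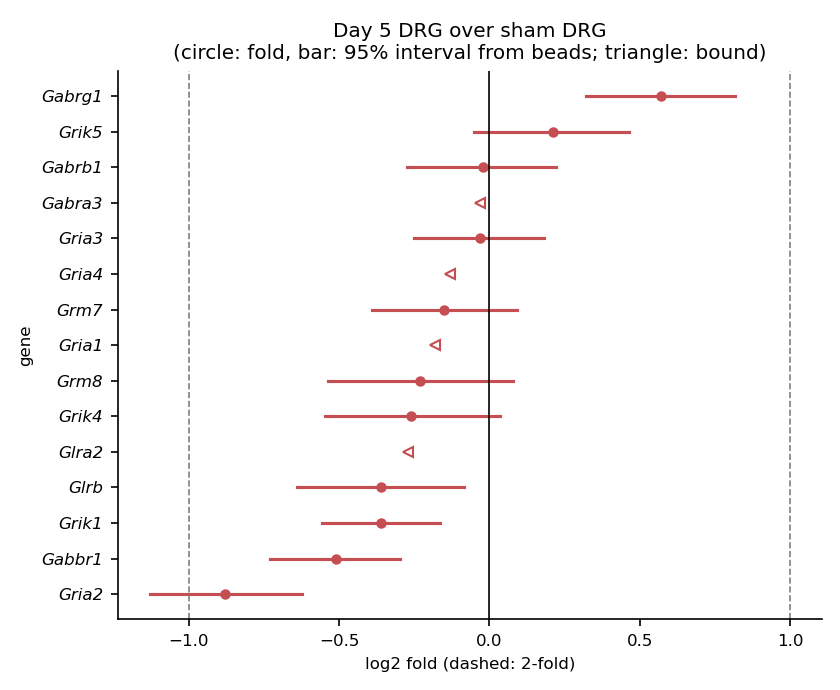
Log2 fold of the 15 members detected in the DRG, day 5 over sham. Circles with bars are folds with 95% intervals from the beads, and triangles are lower bounds for genes undetected on day 5. Gabrg1 is highest at 0.57 and Gria2 lowest at -0.88, and no circle passes the 2-fold lines.

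More members were called between tissues than between injury states. In the sham DRG over the sham nerve, 6 of the 15 detected members were called higher and 0 lower, against 12.0% higher and 11.0% lower among all genes. These were Grik1, at least 31.6-fold, Gabbr1, at least 4.79-fold, Gria2, at least 2.78-fold, Grm7, at least 2.64-fold, Glrb, at least 2.35-fold, and Gabrg1, at least 2.13-fold. None of them was detected in the sham nerve. Of the 15 members, the sham nerve detected only Gabra3, Gria3 and Grik5, so the others could not be called lower. The lack of lower calls was thus largely fixed by that filter, and nothing is concluded from it. With the mean of all probes 4 were called, against 10.3% of all genes, since Gabbr1 (1.97-fold) and Glrb (1.39-fold) fell under the limit. The bound of Grik1 was then 3.03-fold. With a detection p under 0.01, and with the deposited processed values, 5 were called, without Gabrg1 (1.90-fold and 1.98-fold), against 12.9% and 11.2% of all genes. Gabra3 (123 in the DRG, 221 in the nerve), Gria3 (185 and 282) and Grik5 (279 and 360) had lower signals in the sham DRG, by 1.29-fold to 1.80-fold. At 1.5-fold, 7 members were higher, Grm8 (at least 1.68-fold) among them, and 2 lower, against 19.7% and 20.7% of all genes. With the day 5 DRG in place of the sham DRG, a setting added after the data were seen, 4 members were called higher, against 11.3% of all genes. They were Gabbr1, Gabrg1, Grik1 and Grm7. Gria2 and Glrb, 1.84-fold and 1.29-fold dimmer in the day 5 DRG, were not among them. Without scaling, calls over all genes were 1507 higher and 906 lower, beside 1251 and 1141, and the members gave the same 6.

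In the day 5 cord over the day 5 DRG, 8 of the 19 detected members were called higher and 1 lower, against 6.08% higher and 7.51% lower among all genes. The higher members were Glra2, Gria2, Gabrb1, Gria1 (at least 3.64-fold), Glra1, Gabra3 (at least 2.39-fold), Grin3b and Glrb (2.12-fold, 1.73 to 2.59), and the lower one Grik1. The median log2 difference was 0.46, beside -0.03 for all genes. All 19 members were detected in the cord, and only 11 of them in the day 5 DRG. Those detected in the cord alone of these arrays could not be called lower there. Gabra3, Glra1, Glra2, Gria1 and Grin3b of the higher members were among them. The median and the split of the calls were thus partly fixed by that filter. At 1.5-fold, 9 were higher, Gria4 (at least 1.80-fold) among them, and 2 lower, against 12.5% and 16.1% of all genes. Gabrg1 was lower in the cord by 1.73-fold (1.48 to 2.01), and Gabbr1 higher by 1.38-fold (1.15 to 1.65). With the sham DRG in place of the day 5 DRG, 7 were called higher and 1 lower, against 5.1% and 6.08% of all genes. The gene that dropped out was Glrb. With a detection p under 0.01 7 were called higher, without Grin3b, against 6.52% of all genes. With the mean of all probes 7 were, without Glrb, against 5.23%. Without scaling, 6 were called higher, without Glrb and Grin3b, and the calls over all genes were 517 higher and 994 lower, beside 632 and 780.

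Genes that serve these receptors were counted from lists of their partners, of transmitter synthesis and transport, and of chloride transporters, and each count is of the genes detected in either array of a comparison. Of the partners of GABA and glycine receptors, 0 of 7 were called at day 1 over sham nerve, against 6.54% higher and 3.59% lower among all genes, and 1 of 7 at day 5, against 6.30% and 5.09%. This was Gabarapl1, an autophagy and trafficking adaptor, which was lower (1379 at day 5, 3866 in sham). In the day 5 DRG 0 of 9 were called, against 0.854% higher and 0.324% lower among all genes. In the cord over the day 5 DRG 0 of 8 were called, against 6.08% and 7.51%. Gphn, the gephyrin scaffold of inhibitory synapses, had 1302 in the cord, 695 in the day 5 DRG and 870 in the sham DRG. In the sham DRG over the sham nerve, 1 of 9 was higher, Gabarapl1 (8274 and 3866), and 1 lower, Kctd12, an auxiliary GABA-B subunit (257 and 597), against 12.0% and 11.0% of all genes.

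Of the partners of glutamate receptors, 1 of 13 was called at day 1 over sham nerve (6.54% of all genes were higher), Nptx2, a secreted pentraxin that clusters AMPA receptors, which was higher (1938 at day 1, 174 in sham). At day 5 over sham 0 of 9 were called, against 6.30% higher and 5.09% lower among all genes. Nptx2 was called lower at day 5 (268) than at day 1. In the day 5 DRG 1 of 19 was lower than in the sham DRG (0.324% of all genes were), Cbln1, a secreted synaptic organizer (219 and 452), and it had 2220 in the cord. In the sham DRG over the sham nerve 8 of 19 were higher and 0 lower, against 12.0% and 11.0% of all genes, led by Nptx2 (2795 and 174), Cacng5 (1002 and 119), Camk2a (691 and 104) and Grip1 (623 and 118). In the cord over the day 5 DRG 5 of 21 were higher and 1 lower, against 6.08% and 7.51% of all genes, with Cbln1 (2220 and 219), Dlg3 (712 and 231), Cacng3 (292 and 95.1) and Dlg4 (428 and 199) among them, and Nptx2 was lower (544 and 3152).

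Of the genes of transmitter synthesis and transport, 3 of 14 were higher at day 1 than in sham nerve, against 6.54% of all genes. They were Slc17a6, the vesicular glutamate transporter VGLUT2 (836 and 143), Slc32a1 (559 and 97.5) and Gad1 (388 and 102). Slc32a1 and Gad1 are also among the spinal neuron markers, and in the same arrays 7 of 10 and 3 of 10 oligodendrocyte markers were detected, with summed signals of 5898 and 3182. At day 5 these genes had 138, 115 and 105, each called lower than at day 1, while Slc17a8, the vesicular transporter VGLUT3, was the 1 of 9 higher than in sham (1036 and 108), against 6.30% of all genes. Abat, which breaks down GABA (707 and 2463), and the transporters Slc6a13 (647 and 1495) and Slc1a3 (913 and 2031) were lower, 3 of 9 against 5.09%. In the day 5 DRG 3 of 15 were lower than in the sham DRG and 0 higher, against 0.324% and 0.854% of all genes, with a list median of -0.43 on the log2 scale, namely Slc32a1 (107 and 1031), Gad1 (97.4 and 535) and Slc6a9, a glycine transporter (182 and 431). Slc17a6 differed little there (11048 and 11450). In the sham DRG over the sham nerve 6 of 15 were higher and 1 lower, against 12.0% and 11.0%, led by Slc17a6 (11450 and 143), Slc32a1, Slc17a7 (1009 and 122) and Gad1, and Slc6a13 was lower (636 and 1495). In the cord over the day 5 DRG 9 of 16 were higher, against 6.08%, led by Slc32a1, Gad1, Slc6a9 (5279 and 182) and Slc1a2 (1978 and 103), and 2 lower, against 7.51%, and the list median was 1.80 on the log2 scale. The lower ones were Slc17a7 (121 and 1390) and Slc17a8 (168 and 390). Of the chloride transporters, 1 of 3 was called at day 5 over sham nerve, against 5.09% lower among all genes. Slc12a2, which loads chloride into sensory neurons and makes GABA depolarizing there, was lower at day 5 than in sham nerve (4792 and 11022), and no other call was made in the list. Slc12a2 had 8353 in the cord, 7228 in the day 5 DRG and 6010 in the sham DRG. Slc12a5, the neuronal chloride exporter, was detected in the cord alone, at 236.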

How the data were processed

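For each probe the authors deposited a non-normalized intensity, averaged over its beads with background left in, its bead standard error, how many beads it had and a p-value of detection. A further deposited table holds processed intensity values with identical quantiles in every array. Agilent Feature Extraction 10.5 is named in the study and in the submitters' processing notes, and the study describes median normalization in GeneSpring. The title of the day 5 nerve array ends with a day 1 code, and its source name, which says day 5, was followed. Probe names came from the platform annotation, in which 1719 of 25697 probes were unnamed.

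Signals were scaled to a common median (factors 0.955 to 1.08). For a gene with several probes, as for 10 members, the probe with the highest mean was used. Detected probes made up 50.9 to 54.5% of each array, with a median of 38 to 40 beads and a median bead standard error of 5.89 to 6.53% of the signal. The number of arrays, 1 per condition, limits the precision. Intervals are 1.96 bead standard errors on the log scale. The calls were tested on simulated data. A first run missed genes near the brightness then required, the required brightness was raised after that, and changes of dimmer genes, as most members are, were often missed, decreases most of all.

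The members, the lists and the motifs were chosen with earlier results of these data known. Full values were given by rule for members called 2-fold in an injury comparison (there were 0) and for the widest gene of each family; other genes given in full were chosen after their values were seen. R 4.3.3, limma 3.58.1 (quantile, and neqc with offset 16), Python 3.11.15, numpy 2.4.6 and pandas 2.3.3 were used.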

Additional observations from a re-analysis of the deposited data

How the results depend on the processing

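No paired analysis was possible because each condition was 1 array. The counts of members called at 2-fold stayed within 1.5 times under no scaling, quantile normalization, the deposited processed values, a detection p under 0.01 and the mean of all probes. They moved with the lower fold and with neqc, which subtracts background. At 1.5-fold, 1 member was higher (Gria2) and 1 lower (Gabra3) at day 1 over sham nerve, against 14.2% and 10.8% of all genes. In the nerve, 1 was lower at day 5 over sham (Grik5, against 12.5%) and 1 at day 5 over day 1 (Gria2, against 11.7%). In the day 5 DRG 1 was lower (Gria2, against 2.24% of all genes). Lower in the sham DRG than in the sham nerve were 2 (Gabra3, Gria3, against 20.7%), and lower in the cord 2 (Gabrg1, Grik1, against 16.1%). With neqc the counts in the same order were 1, 1, 2 (Gabra3 and Grik5), 1, 1, 2 and 2. The shares of all genes called were then 9.03%, 8.75%, 9.63%, 7.27%, 1.17%, 19.2% and 11.2%. Over all 10191 genes detected in either DRG array, the day 5 DRG gave 212 higher and 119 lower, beside 87 and 33. Higher and lower calls were counted apart, so a count could not change direction. Single values were followed only for the widest gene of each family, where 33 moved by more than the bead error and 154 did not. The 154 are no measure of stability, since some settings could not move a value. A lower fold limit leaves a log2 difference as it is, and so does the mean of all probes for a gene with 1 probe. The DRG difference of Grik1 was -0.36 with its brightest probe and 0.09 with the mean of its probes (log2), because its second probe went the other way. The log2 difference of Gria2 in the DRG was -0.88, and -1.30 with neqc. The bound of Grik1 in the sham DRG over the sham nerve was 31.6-fold, 3.03-fold with the mean of all probes and 88.3-fold with neqc, and Gabra3 at day 1 over sham nerve was lower by 1.84-fold, and by 3.73-fold with neqc. Background and the floor of 117 to 124 limit what can be seen of dim members.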
